A study of Mus musculus with 6 samples.

Results

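Interferon-stimulated genes were followed in mouse oviducts lacking 1 functional allele of Wt1 and in wild-type oviducts. The set held 39 listed genes, namely 3 interferon receptor chains, the factors that carry the interferon signal into the nucleus, and genes that the signal induces. Members were the probe sets whose platform annotation named 1 listed gene and no other, and each gene was read from its brightest probe set. Of the 39 genes, 37 were measured, by 57 probe sets, among 18193 genes on the array. Isg15 and Ifi44 had no probe set that named them alone.

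RNA came from whole oviducts of MF1 mice, an outbred stock, taken at embryonic day 2.5 after mating with wild-type males. There were 3 Wt1 heterozygous samples (genotype Wt1 ko/+) and 3 wild-type samples (Wt1 +/+), with 1 array each, so precision is limited by having 3 arrays per genotype. The labels give no further allele or treatment, do not describe how the knockout allele was made, and do not say whether a sample was 1 animal or a pool. Spread between samples, on which the p-values rest, may therefore be technical. In whole tissue, fewer cells of a type and less RNA per cell cannot be told apart.

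Type I interferons act on cells through the receptor chains Ifnar1 and Ifnar2, and interferon gamma acts through a receptor that includes Ifngr1. Receptor-bound Janus kinases phosphorylate STAT proteins. A complex that holds Stat2 and Irf9 then binds the interferon-stimulated response element of target genes, while the gamma-activated site serves the response to interferon gamma. The targets include sensors of viral RNA, enzymes that degrade RNA, proteins that block translation or viral entry, and GTPases that attack the vacuoles of intracellular pathogens.

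The RefSeq promoter table (GRCm38.p6; 250 bases before to 50 after each transcription start) held 29 of the 39 genes. The response element core, read here as 2 copies of GAAA with any 2 bases between them on either strand, was present in the windows of 15 of these 29 genes (51.7%), against 3.99% of the 27025 genes in the table. A longer form, the core followed by CT, was present in 9 of the 29 (31.0%), against 0.303% of all genes. The gamma-activated site pattern, TTCNNNGAA, was present in 9 of the 29 (31.0%), against 9.55% of all genes, and overlapped a core in Bst2 and Ifitm3. These are matches of letters, not measured binding.

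The sequences below belong to the 5 members whose values are given in full and whose windows held the core. They are printed 5′ to 3′ on the gene's strand, with every base of a core match in capitals. Those of Irgm1 (chr11:48871421-48871670, minus strand), Bst2 (chr8:71537473-71537722, minus strand) and Ifit1 (chr19:34640639-34640888, plus strand) are the 250 bases just before the start. Those of Ifitm3 (chr7:141010714-141010743, minus strand) and Ifih1 (chr2:62646206-62646235, minus strand) are 30 bases within the first transcribed bases, where their cores lay.
Irgm1: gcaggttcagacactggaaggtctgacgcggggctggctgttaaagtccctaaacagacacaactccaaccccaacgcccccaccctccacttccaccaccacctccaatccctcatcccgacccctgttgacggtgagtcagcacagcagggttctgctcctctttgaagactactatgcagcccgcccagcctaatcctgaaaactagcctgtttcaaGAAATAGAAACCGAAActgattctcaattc
Bst2: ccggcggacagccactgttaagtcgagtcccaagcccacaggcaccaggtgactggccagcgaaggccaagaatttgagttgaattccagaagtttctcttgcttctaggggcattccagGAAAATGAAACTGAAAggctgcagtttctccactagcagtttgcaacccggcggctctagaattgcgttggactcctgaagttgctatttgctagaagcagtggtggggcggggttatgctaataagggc
Ifit1: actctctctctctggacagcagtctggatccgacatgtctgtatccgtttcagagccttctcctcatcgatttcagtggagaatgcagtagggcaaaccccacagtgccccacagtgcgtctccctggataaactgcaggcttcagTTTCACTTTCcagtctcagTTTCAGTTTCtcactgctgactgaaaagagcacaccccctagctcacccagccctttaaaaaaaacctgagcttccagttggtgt
Ifitm3: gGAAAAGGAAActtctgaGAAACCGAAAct
Ifih1: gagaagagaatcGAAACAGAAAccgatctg
Irgm1 and Bst2 each carried 2 overlapping cores in the forward direction, the first starting 30 bases before the start in Irgm1 and 130 bases before it in Bst2. Both cores of Ifit1 ran in the reverse direction and lay within 104 bases of the start. Isg15, which could not be measured alone, had 3 overlapping cores, the farthest starting 78 bases before the start.

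**Figure D1:**
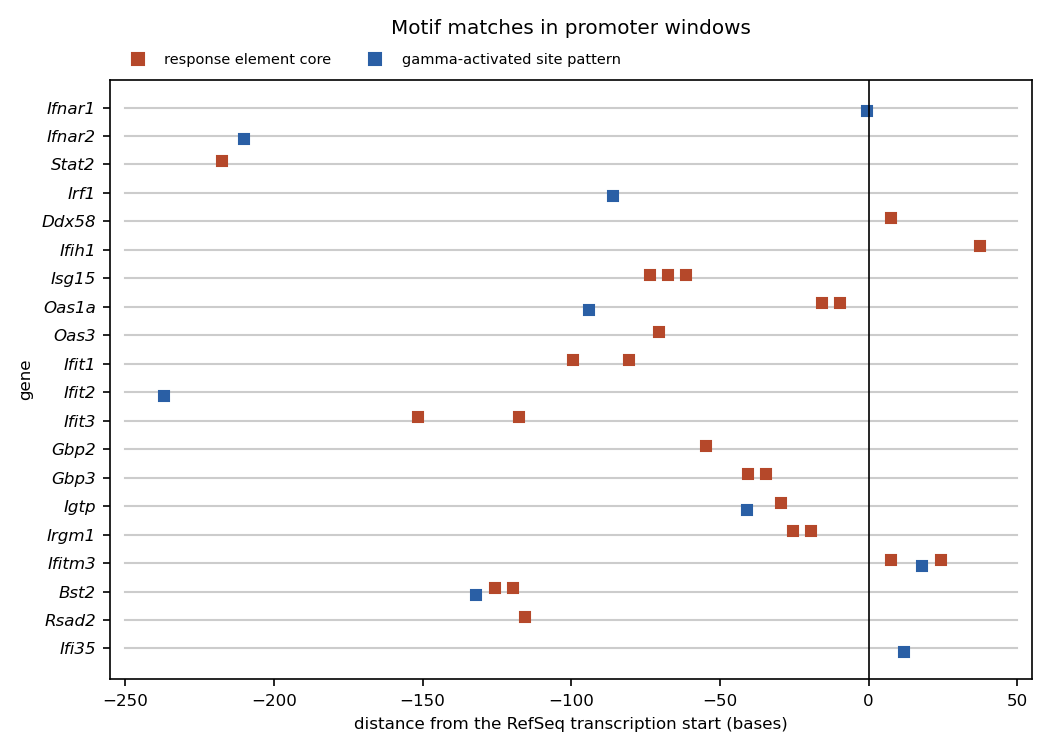
Positions of response element cores (red) and gamma-activated site patterns (blue) in the promoter windows of the listed genes that held either, in bases from the RefSeq transcription start at 0; each square is the middle of a match. Cores of 3 genes, Ddx58, Ifih1 and Ifitm3, lie past the start, and the other 12 genes have theirs before it.

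Ovgp1 served to check the tissue label, and Wt1 the genotype label. Ovgp1, the oviductal glycoprotein of the secretory epithelium, had a log2 level of 14.33 ± 0.02 in heterozygous and 14.27 ± 0.01 in wild-type oviducts (SD, n = 3 each). Wt1 itself, read by 1 probe set, was at 11.39 ± 0.35 in heterozygous and 11.96 ± 0.26 in wild-type oviducts, and the groups overlapped (log2 change -0.57, limma adjusted p = 0.771, exact two-sided permutation p = 0.2, where 3 arrays against 3 cannot go below 0.1). The sources used here do not say whether that probe set lies inside the deleted sequence. Log2 changes are heterozygous minus wild type throughout, on quantile-normalised log2 intensities, with limma's standard error (SE) and p-values adjusted over all 18193 genes by the Benjamini-Hochberg method.

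No listed interferon gene changed past the threshold of 0.05 in limma, in either direction, against 0.0165% of all genes lower and 0% higher. The smallest adjusted p among the 37 members was 0.610. At an unadjusted p under 0.05, 1 member was lower (Irgm1), against 3.77% of all genes, and 1 was higher (Bst2), against 2.67%; together these 2 were 5.41% of the members, against 6.44% of all genes. The genotypes did not overlap in 3 members, 1 lower (Irgm1) and 2 higher (Bst2 and Irf1), or 8.11% of the members, against 11.8% of all genes (6.77% lower and 5% higher). These shares lay near or under those of all genes. Of the 37 members, 26 had a negative log2 change, or 70.3% against 55% of all genes, and the median change was -0.12 against -0.027.

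Summed up as a score per array (the mean over members of the log2 level minus the gene's mean over all arrays), the set stood at -0.027, -0.052 and -0.079 in heterozygous replicates 1, 2 and 3. In wild-type replicates 1, 2 and 3 it stood at -0.17, -0.018 and 0.34. Wild-type replicate 3 was thus the highest array and wild-type replicate 1 the lowest, with all 3 heterozygous arrays between them. The mean difference was -0.11. Leaving out wild-type replicate 3 turned it to 0.039, and leaving out wild-type replicate 1 made it -0.21, while each other array left out gave between -0.14 and -0.092. Without wild-type replicate 3 the members divided into 23 with a positive and 14 with a negative change, and 18 of the 37 had changed sign. Leaving out the highest wild-type array raises the score difference by construction.

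Wild-type replicate 3 was the highest of the 6 arrays for 25 of the 37 members (67.6%), whereas it was the highest for 29.2% of all genes. Wild-type replicate 1 was the lowest for 16 members (43.2%), against 20.9% of all genes. The wild-type arrays consequently differed more among themselves than the heterozygous arrays. The SD within the group was larger in wild type for 30 of the 37 members (81.1%), against 59.2% of all genes, with a median SD of 0.21 in heterozygous and 0.35 in wild-type oviducts.

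A measure of RNA quality also differed between the arrays. The Actb control's 3′ probe set was brighter than its 5′ probe set, and their ratio, which is higher in degraded RNA, was 2.49, 1.67 and 1.71 in heterozygous replicates 1, 2 and 3, and 1.74, 2.40 and 5.90 in wild-type replicates 1, 2 and 3. With this ratio as a covariate the score difference was 0.051. Within the 3 arrays of lower ratio (heterozygous replicates 2 and 3 and wild-type replicate 1) it was 0.0997, and within the 3 of higher ratio (heterozygous replicate 1 and wild-type replicates 2 and 3) it was -0.19. Each of these sets held 1 array of a genotype, and the highest ratio and the highest score fell in the same array, wild-type replicate 3. These fits therefore cannot tell RNA quality from that sample. The part of RNA quality in the interferon values was not tested.

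**Figure D2:**
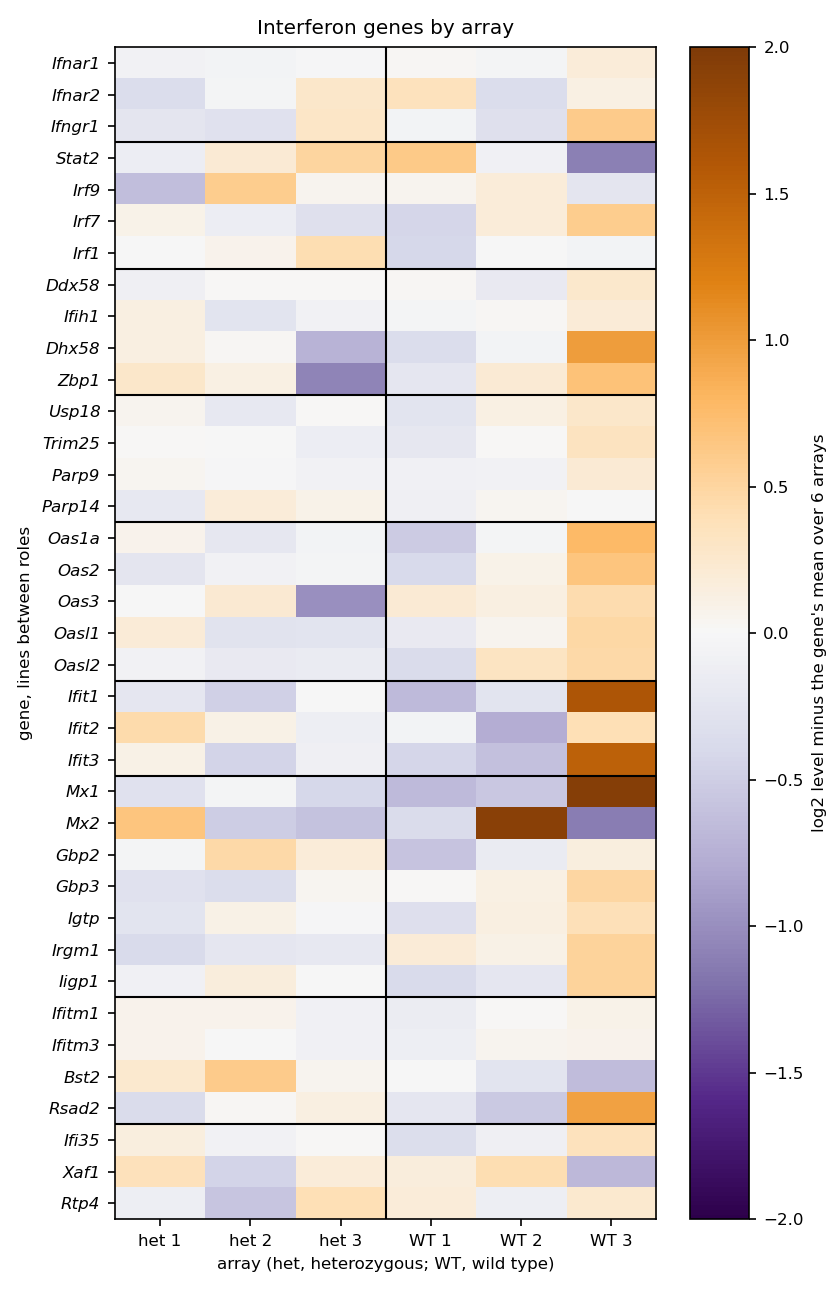
Log2 level of each of the 37 measured genes minus its mean over the 6 arrays (colour), with heterozygous arrays to the left of wild-type arrays and lines between roles. Wild-type replicate 3 is the highest array for 25 genes, most deeply coloured for Mx1, Ifit1 and Ifit3.

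The log2 changes of the 3 receptor chains were each smaller than their standard errors. Ifnar1, the chain that anchors Tyk2, had log2 levels of 9.11, 9.13 and 9.16 in heterozygous replicates 1, 2 and 3, against 9.21, 9.15 and 9.36 in wild-type replicates 1, 2 and 3. The groups overlapped narrowly (log2 change -0.11, SE 0.12, limma adjusted p = 0.928). Ifnar2, the chain that binds interferon most tightly, read 10.61, 10.93 and 11.23 in heterozygous and 11.31, 10.61 and 11.07 in wild-type replicates 1, 2 and 3, nearly the same range in both. Ifngr1, the ligand-binding chain for interferon gamma, read 9.72, 9.67 and 10.25 in heterozygous and 9.91, 9.65 and 10.56 in wild-type replicates 1, 2 and 3, with the third array highest in either genotype. Other probe sets of Ifnar1 and Ifnar2 gave changes of 0.19, 0.074 and 0.013, so no direction held over the probe sets of either gene.

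Among the signal transducers and interferon regulatory factors, Irf1 alone separated the genotypes. Irf1, a transcription factor induced by interferon gamma through a gamma-activated site, had levels of 9.90, 9.97 and 10.32 in heterozygous replicates 1, 2 and 3, against 9.49, 9.89 and 9.85 in wild-type replicates 1, 2 and 3. The lowest heterozygous array lay just above the highest wild-type array, and the difference did not pass (log2 change 0.32, SE 0.18, limma adjusted p = 0.858). It was 0.19 without heterozygous replicate 3 and also without wild-type replicate 1. The promoter window of Irf1 held the gamma-activated site pattern, starting 90 bases before the start, and no response element core. Irf7, which amplifies type I interferon production, gave -0.23, Irf9, the DNA-binding part of the STAT complex, gave 0.0058, and Stat2, its partner, gave 0.39, or -0.070 without wild-type replicate 3.

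All 4 sensors of nucleic acids had negative log2 changes at their brightest probe sets, and in each the genotypes overlapped. Ifih1, the sensor of long double-stranded RNA known as MDA5, read 10.21, 9.83 and 10.02 in heterozygous replicates 1, 2 and 3, against 10.04, 10.11 and 10.28 in wild-type replicates 1, 2 and 3. Its change was -0.12 (SE 0.15, limma adjusted p = 0.931). Ddx58, which encodes the RNA sensor RIG-I, gave -0.070, Dhx58, a regulator of both, -0.38, and Zbp1, a sensor of Z-form nucleic acids, -0.45. Without wild-type replicate 3 these were -0.053, 0.040, 0.018 and -0.22 for Ifih1, Ddx58, Dhx58 and Zbp1. With all arrays, other probe sets gave 0.26 and -0.040 for Ddx58, -0.090 and -0.18 for Dhx58 and -1.01 for Zbp1. Zbp1, with Oas3 and Mx2, lay under the median probe set (log2 level 7.31); the other 34 measured members lay above it.

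Members of the ISG15 system and its neighbours stayed close together. Usp18, the protease that removes ISG15 and restrains the type I receptor, gave a log2 change of -0.091. Trim25, a ubiquitin ligase that acts on RIG-I, read 11.06, 11.04 and 10.91 in heterozygous and 10.84, 11.05 and 11.38 in wild-type replicates 1, 2 and 3, so that the wild-type arrays lay on both sides of all heterozygous arrays (log2 change -0.087, SE 0.17, limma adjusted p = 0.951). Parp9 and Parp14, both involved in ADP-ribosylation, gave -0.031 and 0.048. A probe set shared by Isg15 and Gm9706, outside the set because it names both, read 8.31, 8.09 and 8.38 in heterozygous and 8.07, 8.26 and 9.27 in wild-type replicates 1, 2 and 3, again highest in wild-type replicate 3.

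The 5 OAS genes, of which the synthetases make the messenger that activates RNase L, all had negative log2 changes. The median was -0.23 and the genotypes overlapped in each. Oasl2, an OAS-like protein, read 10.80, 10.69 and 10.72 in heterozygous replicates 1, 2 and 3, against 10.51, 11.20 and 11.35 in wild-type replicates 1, 2 and 3. Its heterozygous arrays lay close together and between the wild-type arrays (log2 change -0.28, SE 0.24, limma adjusted p = 0.898). Wild-type replicate 3 was the highest array for all 5 genes, by 1.05 over the mean of the other wild-type arrays for Oas1a, 0.81 for Oas2, 0.54 for Oasl1, 0.49 for Oasl2 and 0.25 for Oas3. Without that array the changes were 0.22, 0.038, -0.046, -0.12 and -0.43 in the same order of genes.

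The IFIT genes encode proteins that bind foreign RNA and block its translation. Wild-type replicate 3 was the highest array for Ifit1 and Ifit3, and heterozygous replicate 1 for Ifit2. Ifit1 read 8.77, 8.52 and 8.98 in heterozygous replicates 1, 2 and 3, against 8.33, 8.74 and 10.62 in wild-type replicates 1, 2 and 3. As deposited intensities these were 427, 375 and 512 in heterozygous and 326, 429 and 1569 in wild-type oviducts. A single wild-type array was high, and the others overlapped the heterozygous arrays (log2 change -0.48, SE 0.60, limma adjusted p = 0.934). Without wild-type replicate 3 the change of Ifit1 was 0.22. Ifit3 was higher in wild-type replicate 3 than in the mean of the other wild-type arrays by 2.03, and Ifit2 by 0.82; their changes were -0.31 and 0.29 with all arrays and 0.37 and 0.56 without that array.

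The GTPases divided. Irgm1, an immunity-related GTPase that protects host membranes, had levels of 9.53, 9.69 and 9.71 in heterozygous replicates 1, 2 and 3, against 10.10, 10.01 and 10.43 in wild-type replicates 1, 2 and 3. Every heterozygous array lay under every wild-type array, a 1.46-fold lower level (log2 change -0.54, SE 0.15), which did not pass (limma unadjusted p = 0.0129, adjusted p = 0.610, exact permutation p = 0.1). Irgm1 was measured by 1 probe set, and its change ranged from -0.63 to -0.42 when single arrays were left out. Igtp, a relative of Irgm1 whose window also held the core, gave -0.12, and Iigp1, of the same family, gave 0.054. The guanylate-binding proteins Gbp2 and Gbp3 gave 0.40 and -0.40, and the second probe set of Gbp2 gave 0.42 with no overlap between the genotypes, as did 4.67% of all probe sets in that direction.

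Mx1 and Mx2, dynamin-like GTPases that block viral replication, had the largest spreads of the set. Mx1 read 7.64, 7.89 and 7.52 in heterozygous and 7.27, 7.37 and 9.87 in wild-type replicates 1, 2 and 3. Wild-type replicate 3 exceeded the mean of the other wild-type arrays by 2.55, the largest such gap among the members. Mx2 read 5.92, 4.75 and 4.66 in heterozygous and 4.88, 7.17 and 4.14 in wild-type replicates 1, 2 and 3, dim in most arrays, and was high in wild-type replicate 2 and not in replicate 3. Neither gene's change passed (-0.48 for Mx1 and -0.28 for Mx2, limma adjusted p = 0.942 and 0.968).

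Bst2 was the member with the largest positive change. Bst2, or tetherin, a membrane protein that holds budding virus at the cell surface, read 10.53, 10.88 and 10.34 in heterozygous replicates 1, 2 and 3, against 10.27, 10.03 and 9.63 in wild-type replicates 1, 2 and 3. No arrays overlapped, and the level was 1.52-fold higher in heterozygous oviducts (log2 change 0.61, SE 0.23). The difference did not pass (limma unadjusted p = 0.0362, adjusted p = 0.738, exact permutation p = 0.1), and it ranged from 0.44 to 0.76 when single arrays were left out and was 0.41 with the Actb ratio as covariate. Bst2 ran against the other members in wild-type replicate 3, where it was lowest. At the brightest probe sets, only Stat2, Irf9, Mx2, Bst2 and Xaf1 were lower in that array than the mean of the other wild-type arrays. The other 32 of the 37 members were higher. Some other probe sets differed: that of Xaf1 read 7.31, 7.23 and 11.21 in wild-type replicates 1, 2 and 3. Conversely, another probe set each of Trim25 and Ifnar1 was lowest in wild-type replicate 3, at 10.475 and 7.40.

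Ifitm1 and Ifitm3 varied less over the arrays than Bst2, and Rsad2 varied more. Ifitm3, which restricts viral entry from endosomes, read 14.08, 14.00 and 13.92 in heterozygous and 13.89, 14.05 and 14.08 in wild-type replicates 1, 2 and 3, the smallest spread of all members. Its log2 change had a standard error of 0.12 around a value close to 0. Ifitm1, its relative at the cell surface, gave 0.039. Rsad2, or viperin, which makes a chain-terminating nucleotide, gave -0.13 with all arrays and 0.31 without wild-type replicate 3, where its level exceeded the mean of the other wild-type arrays by 1.35.

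Of the remaining induced proteins, Ifi35 read 12.16, 11.96 and 12.03 in heterozygous and 11.69, 11.92 and 12.37 in wild-type replicates 1, 2 and 3. At this brightest probe set the wild-type arrays again lay on both sides of the heterozygous arrays (log2 change 0.057, SE 0.20, limma adjusted p = 0.974). Another Ifi35 probe set gave 0.30 with no overlap between the genotypes, as did 4.67% of all probe sets in that direction. The remaining Ifi35 probe set gave 0.041 with overlap. Xaf1, a binding partner of the apoptosis inhibitor XIAP, gave 0.074 and Rtp4 gave -0.20. Of 14 members with several probe sets, 6 had all probe sets on the same side of 0 and 8 had probe sets on both sides.

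**Figure D3:**
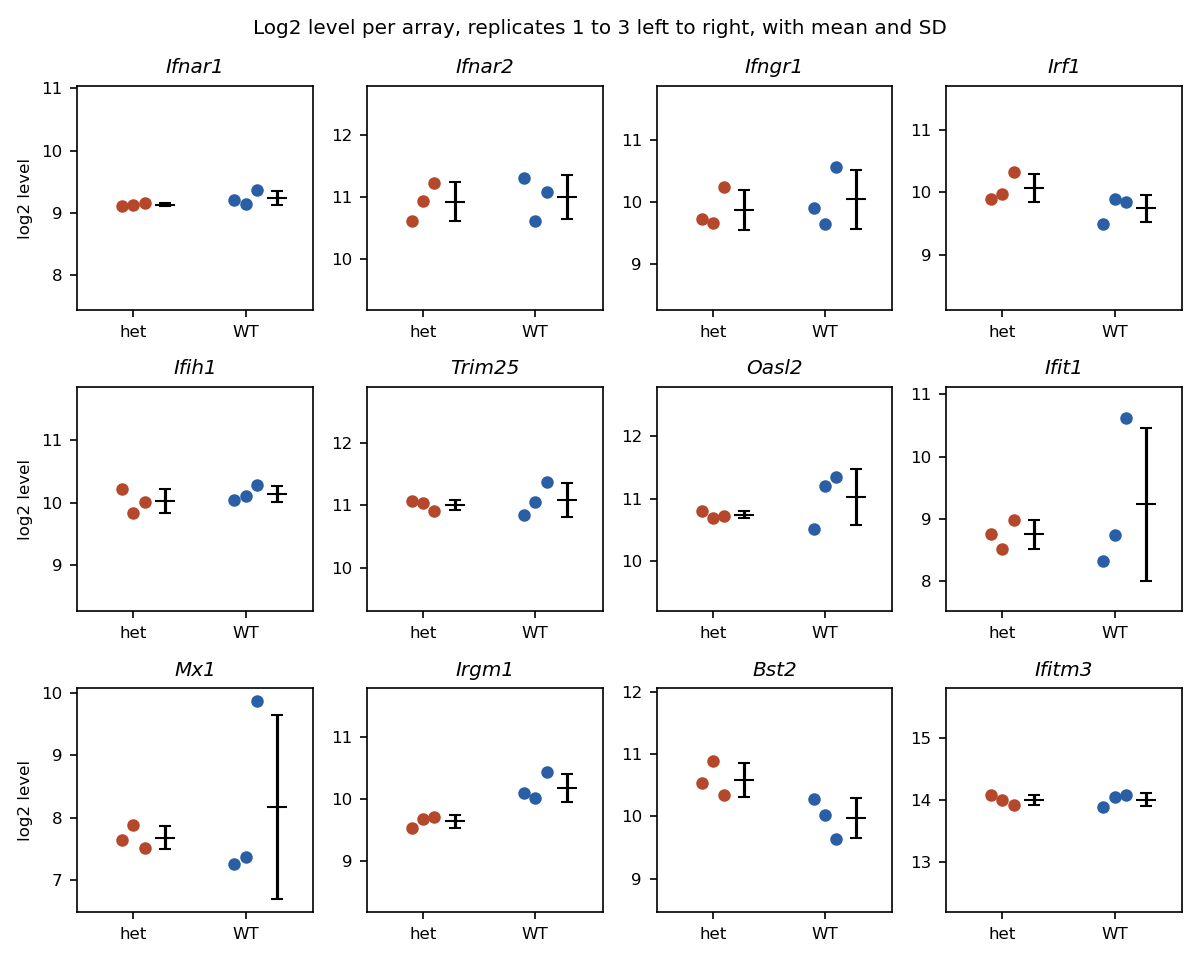
Log2 level of 12 members per array, heterozygous (het, red) left of wild type (WT, blue), replicates 1 to 3 from left to right, with the mean and SD of 3 arrays beside them; every panel spans the same range of log2 units. Irgm1 and Bst2 separate the genotypes in opposite directions, and Ifit1 and Mx1 have 1 high wild-type array, at 10.62 and 9.87.

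Without wild-type replicate 3, the genotypes did not overlap in 8 members. Of these 7 were higher in heterozygous oviducts, namely Irf1, Parp9, Mx1, Gbp2, Iigp1, Bst2 and Ifi35, against 9.6% of all genes with those 5 arrays. Irgm1 alone was lower, against 10.1%, and either direction held for 19.7% of all genes. Wild-type replicate 3 was the highest array for 25 of the 37 members, so leaving it out raises their changes by construction. The excess of members on the higher side therefore cannot be read as a result. The smallest adjusted p of a member in limma was then 0.833, and 0 genes in all passed, with 996 (5.47%) at an unadjusted p under 0.05.

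**Figure D4:**
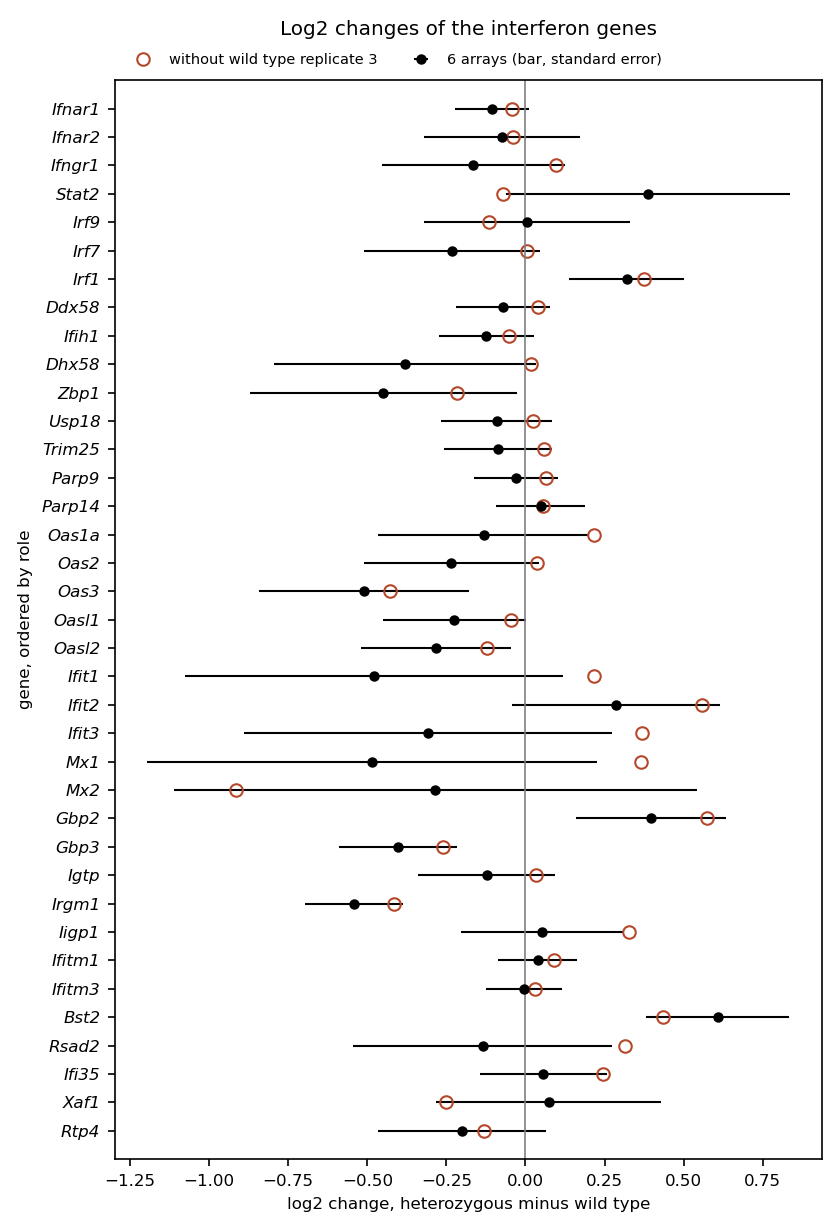
Log2 change, heterozygous minus wild type, of the 37 measured genes with all 6 arrays (black, bar for the standard error) and without wild-type replicate 3 (red, open). Removing that array moves 18 genes across 0, Ifit1, Ifit3 and Mx1 among them, and leaves Irgm1 at -0.42 and Bst2 at 0.44.

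The 14 measured members whose windows held the core and the 13 whose windows did not were set side by side as a description. The median log2 change was -0.13 with the core and -0.075 without it. In wild-type replicate 3 the mean centred level was 0.40 with the core and 0.20 without it, so that array was high in both. The remaining 10 measured members, Mx1 and Mx2 among them, were not in the promoter table.

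Other genes of the pathway, from lists chosen by function, gave 0 genes past the threshold among 96 measured of 118 listed, with 3 higher and 2 lower at an unadjusted p under 0.05 (5.21%, against 6.44% of all genes). Among 9 measured interferon genes, none above the median probe set, Ifnz had a log2 change of 0.44, Ifna11 of -0.58 and Ifna2 of 1.37. In the list of other receptor chains, kinases and STATs Jak1 gave 0.36, Tyk2 -0.18 and Jak2 0.072. In the list for interferon induction and its regulators, 10 of 15 measured genes were lower (66.7%, against 55% of all genes). The adaptor Ticam1 stood at -0.42, Sting1 at -0.42 and the kinase Ikbke at -0.22. All of these named changes were short of the threshold (limma adjusted p from 0.670 to 0.942). Other probe sets gave 0.076 and 0.50 for Jak1, 0.20 for Tyk2, 0.61 for Jak2 and 0.089 for Sting1. The signs of Tyk2 and Sting1 thus did not hold over their probe sets.

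Among 10 genes that restrain the response, Socs1, a feedback inhibitor of Janus kinases, read 4.60, 5.93 and 4.67 in heterozygous and 5.65, 6.26 and 7.16 in wild-type replicates 1, 2 and 3. Its mean level lay under the median probe set. The groups overlapped, and the change was -1.29 (SE 0.52, limma adjusted p = 0.761), or -0.89 without wild-type replicate 3. Samhd1, which depletes nucleotides, gave 0.43, though its 5 probe sets ranged from -0.41 to 0.85, and Ptpn2, a phosphatase, gave -0.17.

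A list of 55 measured interferon-induced genes outside the set was likewise highest in wild-type replicate 3. Its score was -0.0092, 0.017 and -0.019 in heterozygous replicates 1, 2 and 3, and -0.19, -0.041 and 0.24 in wild-type replicates 1, 2 and 3, and that last array was the highest of 6 for 31 genes (56.4%). Slfn5, a Schlafen family protein, had the smallest p of the list and lay under the median probe set. It read 7.11, 7.21 and 7.38 in heterozygous and 5.78, 6.15 and 5.90 in wild-type replicates 1, 2 and 3, with no overlap (log2 change 1.29, SE 0.15, limma adjusted p = 0.201). Its other probe sets gave 0.87 and -0.17, both with overlap. Trim21, a cytosolic antibody receptor, gave -0.45, with -0.016 at its other probe set, and Nmi, a protein that binds STATs, gave 0.33.

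Cells of the immune system were examined because they respond to and make interferon. The 4 general leukocyte markers, with Ptprc at 9.49 ± 0.25 in heterozygous and 9.25 ± 0.10 in wild-type oviducts (SD, n = 3 each), had summed intensities of 2613 to 3599 in heterozygous and 2225 to 3501 in wild-type oviducts. Their score was -0.020, 0.35 and -0.20 in heterozygous replicates 1, 2 and 3, and -0.42, -0.067 and 0.35 in wild-type replicates 1, 2 and 3. The 7 macrophage markers summed to 6842 to 9113 in heterozygous and 6779 to 8754 in wild-type oviducts. Their score was highest in heterozygous replicate 2, at 0.27, and lowest in wild-type replicate 2, at -0.11, with wild-type replicate 3 at 0.13.

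The 6 dendritic cell markers summed to 898 to 998 in heterozygous and 770 to 885 in wild-type oviducts, the 10 T and NK cell markers to 1170 to 1185 and 1037 to 1424, and the 2 B cell markers to 189 to 244 and 183 to 220, in the same order of genotypes. All 3 neutrophil markers, S100a8, S100a9 and Ngp, were higher in every heterozygous array than in any wild-type array, as were 5% of all genes. Their sums were 1062 to 5099 in heterozygous and 163 to 503 in wild-type oviducts, and none passed (limma adjusted p from 0.503 to 0.698). Over the 32 leukocyte markers of all types, 4 separated the genotypes in that direction and 0 in the other. Outside the immune lists, all 6 endothelial, all 6 smooth muscle and all 4 stromal markers had positive changes, with medians of 0.37, 0.65 and 0.30. So did all 3 measured adipocyte markers, with a median of 2.08, and 2 of 3 mesothelial markers, with a median of 0.20. Of all genes 55% were lower. The genotypes did not overlap in 2 endothelial, 5 smooth muscle, 0 stromal, 2 adipocyte and 1 mesothelial markers. All of these were higher in heterozygous oviducts, against 5% of all genes, and none passed in limma. Of 5 ciliated cell markers 4 were lower, with a median of -0.17, and of 6 oviduct epithelial markers 4 were higher and 2 lower, with a median of 0.023. No marker of any list was at the floor of 1 in any array, though that floor is not a background level. Above the median probe set lay 1 of 6 dendritic cell, 1 of 10 T and NK cell and 0 of 2 B cell markers. The same held for 1 of 3 adipocyte markers, so the levels of these 4 lists may lie near background. The part of these cells in the interferon values was not tested.

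**Figure D5:**
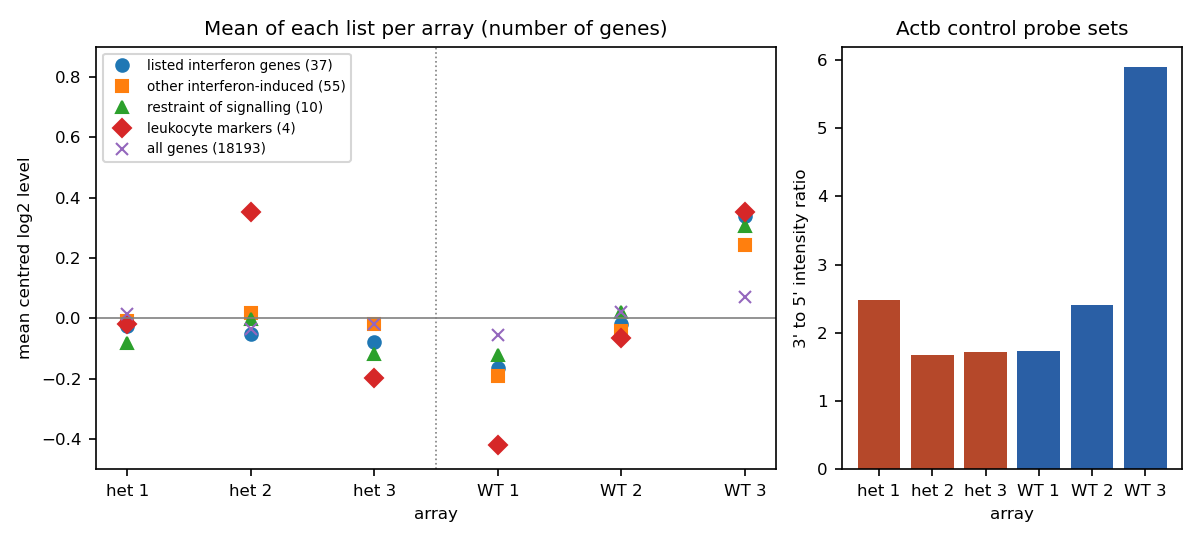
Left, mean centred log2 level per array of 4 gene lists and of all genes, with the number of genes in each; right, Actb 3′ over 5′ control intensity (ratio) per array. In wild-type replicate 3 the listed interferon genes stand at 0.34, the other interferon-induced genes at 0.24 and the restraint genes at 0.31. Leukocyte markers stand at 0.35 there and in heterozygous replicate 2, and all genes at 0.072 in wild-type replicate 3. The Actb ratio of wild-type replicate 3 is 5.90.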

How the data were processed

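Biotin-labelled cRNA of 6 oviduct samples was hybridised to a 1-colour array, and groups and replicate numbers came from the sample titles. For each of 45101 probe sets the authors deposited a linear intensity in every array; the sources used here do not name the summarising program. The deposited intensities had been scaled, since the mean after trimming 2% at each end was 500.002 in every array. There were no detection calls, so dim genes may lie at background.

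After 64 control probe sets were left out, intensities under 1 were set to 1, log2 transformed and quantile normalised, because log2 array medians spanned 0.147. Of 45037 probe sets, the platform annotation gave 1 gene symbol to 34945, more than 1 to 932 and no entry to 9160; Entrez identifiers matched the RefSeq gene table for 34741. Each gene was read from its probe set of highest mean over all arrays, with no filter on low values. The genotypes were compared over all genes in R 4.3.3 with lmFit and eBayes of limma 3.58.1; p-values were two-sided, adjusted by Benjamini-Hochberg and called under 0.05, and the fit was tested on simulated data. Single values were also compared by exact permutation. The median intensity per array lay between 152.0 and 168.3, and correlations between arrays between 0.960 and 0.972. Alternatives were another scaling, offset, filter, variance prior, probe set rule, replicate block and RNA quality covariate, and leaving out each array.

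The members, lists, motifs and tests were chosen with earlier results of these data known. Values per array are given for members at an unadjusted p under 0.05 or without overlap, the brightest of each role, the receptors, and the members of largest and smallest spread; pathway genes named are up to 3 of smallest p per list. Values of other members were chosen after they were seen.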

Additional observations from a re-analysis of the deposited data

How the results depend on the processing

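No listed interferon gene passed the threshold under any alternative, with the lowest adjusted p of a member, 0.299 for Irgm1, under the filter on dim probe sets. With limma 2 members had an unadjusted p under 0.05, against 6.44% of all genes. There was 1 with the Actb 3′ to 5′ ratio as covariate, against 6.12% of all genes. Leaving out single arrays gave 1 to 3 members, against 4.63% to 10.5% of all genes. The genotypes did not overlap in 3 members, against 11.8% of all genes, and in 5 without cross-hybridizing probe sets, against 11.7%. They did not overlap in 4 to 9 when single arrays were left out, where fewer arrays also make 17.6% to 32% of all genes free of overlap. The score difference of -0.11 was -0.10 with the deposited scaling. It was 0.0997 within the 3 arrays of lower Actb ratio, of which 1 was wild type. Within the 3 of higher ratio, of which 1 was heterozygous, it was -0.19. Over single arrays left out it ranged from -0.21 to 0.039, and the median change from -0.21 to 0.034. The count of 3 genes past the threshold was 6 with the filter, 1 with trend and robust, and 0 with the replicate block, without cross-hybridizing probe sets, with the Actb covariate and when any array was left out. The replicate numbers did not pair the arrays: deviations of same-numbered arrays correlated at -0.098, -0.028 and -0.078. With the block 3 members had an unadjusted p under 0.05 in limma, against 5.36% of all genes, and no member passed. Wt1 had no value without cross-hybridizing probe sets, and ranged from -0.77 to -0.43 over single arrays left out. Changes near 0 turned sign: averaging all probe sets of a gene put Ifnar2 at 0.0040 and Ifnar1 at 0.041, and without cross-hybridizing probe sets Ifnar2 stood at 0.013 and Trim25 at 0.12. With the Actb covariate Trim25 stood at 0.080, Ifit1 at 0.23, Ifitm3 at 0.056 and Ifngr1 at 0.046. Over single arrays left out, Ifnar2 ranged from -0.27 to 0.082, Trim25 from -0.21 to 0.058, Ifit1 from -0.93 to 0.22, Ifitm3 from -0.064 to 0.033, Ifi35 from -0.094 to 0.25, Ifngr1 from -0.36 to 0.096 and Mx2 from -0.91 to 0.60. Why these signs turned was not tested. With 3 arrays per genotype, small changes are not detectable.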

Other observations

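Trim34a, an interferon-induced TRIM protein chosen here after its values were seen, read 9.91, 9.62 and 9.91 in heterozygous replicates 1, 2 and 3, against 6.79, 6.90 and 9.90 in wild-type replicates 1, 2 and 3. Wild-type replicate 3 thus stood with the heterozygous arrays at the brightest probe set, and the other wild-type arrays stood apart by 2.97 on the log2 scale from the heterozygous mean. At the second Trim34a probe set the log2 change was -0.52. The change at the brightest probe set was 1.95 (SE 0.84, limma adjusted p = 0.80).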
